A study of Mus musculus with 8 samples.

Results

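A set of 6 long noncoding RNA genes was followed through arsenite stress and recovery in NIH3T3 cells, an established line of mouse fibroblasts. They were 4 host genes of small nucleolar RNAs (snoRNAs), Gas5, Snhg1, Snhg3 and Snhg12, and the nuclear RNAs Malat1 and Neat1. The members were taken from a given list of noncoding genes, and all 6 were present in all 3 of the deposited gene tables and PAS tables, among 9875 genes shared by the 3 gene tables. The control cells were not treated (NT). The stressed cells received sodium arsenite at 250 µM for 1 h (AS), and the recovering cells had the same treatment followed by normal medium, for 4 h in RC4 and for 8 h in RC8. Each condition had 1 library of QuantSeq FWD, which reads RNAs close to their 3′ ends, so no comparison has a replicate and no P value is given. Intervals given as 95% cover counting error only, and since the reads carry no molecular identifiers they are not independent molecules. In bulk samples, fewer cells of a type and less RNA per cell cannot be told apart.

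SnoRNA host genes are transcribed and spliced, and the snoRNAs are trimmed out of their introns. Box C/D snoRNAs direct ribose methylation of ribosomal RNA, box H/ACA snoRNAs direct pseudouridylation, and bound proteins protect both ends of the mature snoRNA. The spliced host RNAs are often short-lived, and several, Gas5 among them, are degraded in a manner that depends on translation. Malat1 is an abundant RNA of nuclear speckles, and Neat1 is the scaffold of paraspeckles, made as a short polyadenylated transcript and a long one from the same start.

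The libraries held 22441452 to 22996421 reads on listed genes, and levels are given as RPM, reads scaled to a library total of 1000000. The 3 comparisons share the NT library. For the members its RPM differs slightly between tables, in part because each table lists its own set of genes. The NT read count itself also differs for some genes, as for Snhg7, with 1305 reads in the AS table and 1026 in the RC4 and RC8 tables. The median gene changed by −0.04 on the log2 scale in AS, then −0.30 in RC4 and 0.01 in RC8. Scaling by TMM added 0.29 to each log2 change in RC4 and moved those in AS by 0.046 and those in RC8 by −0.0037, so RC4 values are read beside −0.30. All 12 fibroblast markers were listed in each table, with a summed level of 17693 RPM in NT, 18468 in AS, then 14280 in RC4 and 11655 in RC8. S100a4 made up a large part of this sum, with 231994 reads in NT, 243873 in AS, then 185183 in RC4 and 131417 in RC8. Of the 12, 6 were above NT and 6 below in AS, 1 above and 11 below in RC4, and 2 above and 10 below in RC8. Of 12 markers of other cell types 1 was listed, the tubulin gene Tubb3, at 2.79 RPM in NT, 2.32 in AS, then 11.01 in RC4 and 15.8 in RC8. The part of these shifts in the results was not tested.

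The annotation in mm9 (GENCODE vM1) places Gas5 at chr1:162964553-162968670 on the plus strand, with 25 transcripts and 9 box C/D snoRNAs. Snhg1 lies at chr19:8797986-8800932 on the plus strand, with 2 transcripts and 8 box C/D snoRNAs. Snhg3 lies at chr4:131903929-131909601 on the minus strand and holds 2 box H/ACA snoRNAs, Snora73a and Snora73b. Its near neighbor Snhg12 lies at chr4:131864593-131866939 on the plus strand and holds 1 box C/D and 3 box H/ACA snoRNAs. Malat1 lies at chr19:5795690-5802671 and Neat1 at chr19:5824708-5845478, both on the minus strand and with no annotated snoRNA.

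Several of the polyadenylation sites (PASs) listed for the host genes lay at the ends of snoRNAs. Of 24 distinct PAS positions of the 6 genes, 8 lay within 10 nt of the 3′ end of an annotated snoRNA, a distance chosen after the positions had been seen. They were 3 positions in Gas5, 1 in Snhg1, 1 in Snhg3 and 3 in Snhg12, and 2 further positions of Gas5 lay inside SNORD74 and SNORD24. Over all genes, 0.212% of the PASs of the AS table, 0.149% of the RC4 table and 0.152% of the RC8 table lay at a snoRNA end. Among intronic PASs alone the shares were 1.45%, 0.939% and 0.975%. These shares are a description, since host genes were on the list by virtue of holding snoRNAs.

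The sequences below end at the PAS, read 5′ to 3′ on the strand of the gene, and are shown so that sites at snoRNA ends can be set beside other 3′ ends. At box C/D ends the capitals mark CTGA, the letters of box D, and at H/ACA ends they mark ACA placed 3 nt before the snoRNA end.
Gas5, SNORD78 end, chr1:162967151-162967180: aacttgtagacaatttttaacaCTGAagaa
Gas5, SNORD79 end, chr1:162967546-162967575: gattgattgttaagCTGAaacagtatttaa
Snhg1, SNORD31 end, chr19:8800122-8800151: ctgtggagaaaggtattttCTGAgttgtga
Snhg3, Snora73b end, chr4:131908236-131908265: tgaggagacaaaccatgcaggaaACAaaaa
Snhg12, Snora61 end, chr4:131866258-131866287: agagcagcaggccagactcagACAtgcctg
Snhg12, Snora16a end, chr4:131865487-131865516: gatctgcaacattgtggaaaatgACAgctt
The PASs were 0, 5, 1, 1, 3 and 1 nt past the annotated snoRNA ends, in the order shown. On the strand of the gene, CTGA was present in the 30 nt before 11.8% of all 21565 distinct PASs of the tables, and ACA before 8626 of them. ACA starting 7 to 9 nt before the PAS, as in the H/ACA ends shown, was found at 5.80% of all PASs. The PAS at the end of Snora44 in Snhg12 had no ACA at that place.

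The last exons of Snhg1, Snhg3 and Snhg12 and the ends of Neat1 and Malat1 had the usual polyadenylation signals, the hexamers AATAAA or ATTAAA, in capitals in the next sequences, and the site near the start of Malat1 had neither.
Snhg1, last exon, chr19:8800904-8800933: ttgttctagcAATAAAtgctctttatgcta
Snhg3, last exon, chr4:131907849-131907878: ttaaaatctgaATTAAAgcatttgaatgtc
Snhg12, last exon, chr4:131866910-131866939: agttggttcAATAAAgacttttggaaagtg
Neat1, end of the short transcript, chr19:5842307-5842336: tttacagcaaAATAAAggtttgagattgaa
Malat1, end of the gene, chr19:5795690-5795719: ttttatgaAATAAAaactaaatatctctca
Malat1, site near the gene start, chr19:5801793-5801822: gcacaggtagtaggaagccgaagaatagaa
On the strand of the gene, 47.0% of all PASs had 1 of these hexamers in 30 nt, and 53.8% of the PASs of the AS table had 1 in 40 nt. None of the 8 snoRNA-end positions of the members had one in 40 nt. Among all PASs at snoRNA ends, it was present at 1 of 40 in the AS table, 1 of 28 in the RC4 table and 0 of 29 in the RC8 table. Of the 14 member positions neither at a snoRNA end nor inside a snoRNA, 7 also had none, among them the last exon of Gas5 and 3 positions of Neat1. Of these 3, the position at 3.20 kb from the gene start is listed for RC8 in place of the short end. The hexamer was thus rare at snoRNA ends, but its absence does not by itself mark one.

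**Figure D1:**
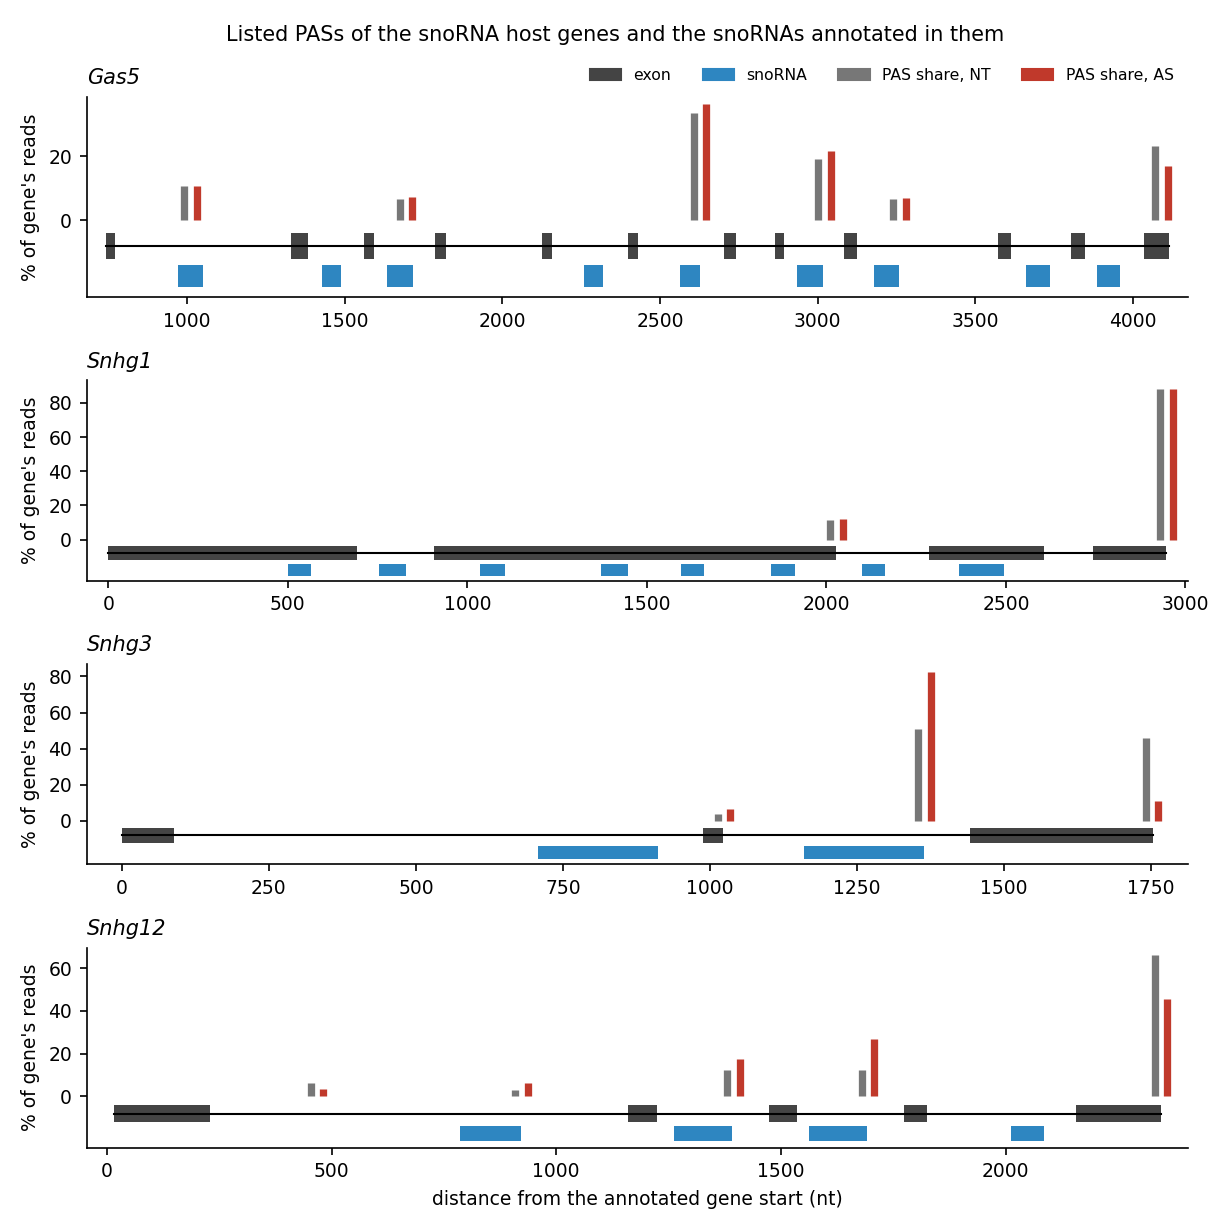
Exons of 1 annotated transcript per gene (dark boxes), snoRNAs (blue) and the share of the gene's reads at each listed PAS in NT (gray) and AS (red, drawn just beside it), against distance from the annotated gene start in nt. In Snhg3 the share at the Snora73b end is 50.8% in NT and 82.4% in AS, and at the Snora61 end of Snhg12 it is 12.3% and 26.8%.

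After arsenite, the level summed over all sites was higher than in NT for all 4 host genes and lower for both nuclear RNAs. Gas5 had the smallest of the 4 increases, and 85.0% of all genes had a lower value. At the last exon alone, Gas5 (−0.24), Snhg3 (−1.25) and Snhg12 (−0.26) were lower in AS, and Snhg1 was higher (0.86). At 2-fold or more, 1 of the 6 genes was called, Neat1, where 3.85% of all 10452 genes were called and 3.22% in its direction. At 4 h of recovery, 2 of the 6 were called, Neat1 higher and Snhg3 lower, where 17.1% of 10081 genes were called, 3.69% higher and 13.4% lower. After scaling by TMM, 1 of the 6 was called in RC4, since Snhg3 came to −0.77, and 48.5% of all calls were higher in place of 21.6%. At 8 h of recovery, 0 of the 6 were called, and 6.5% of 10441 genes were.

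**Figure D2:**
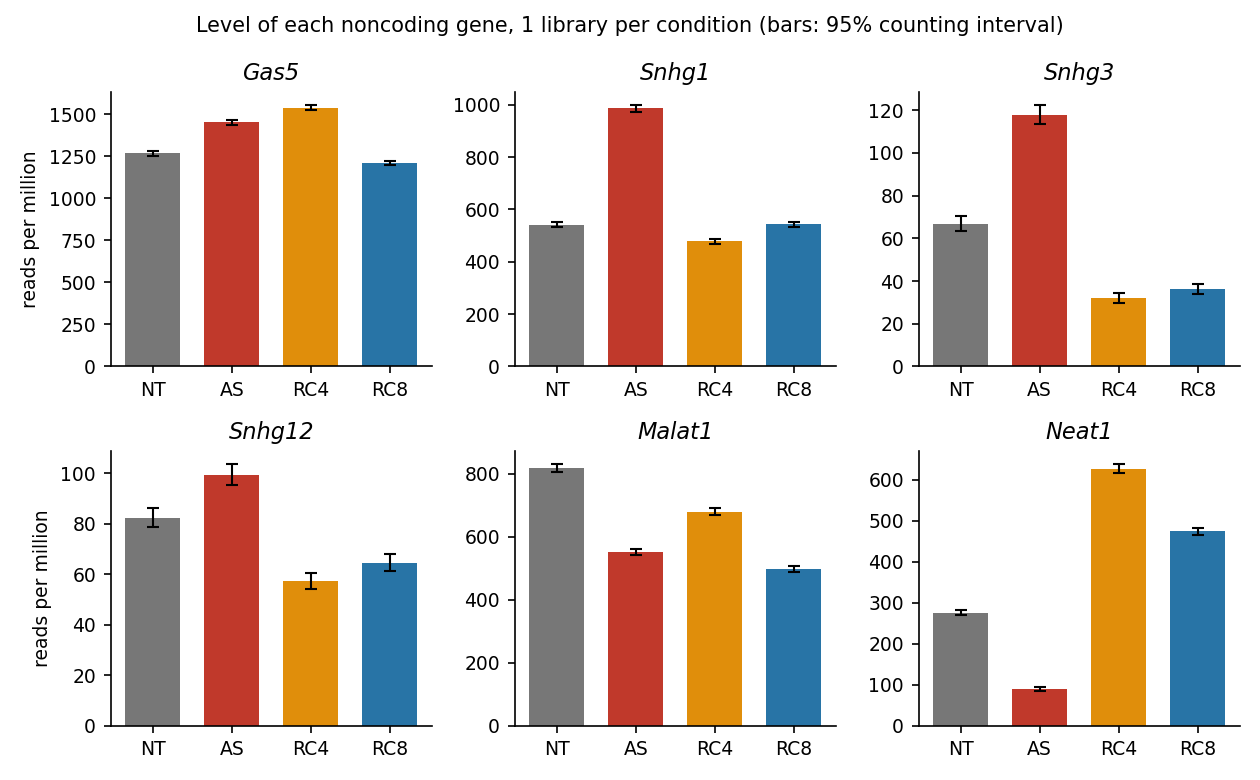
Level of the 6 genes in RPM in NT, AS, RC4 and RC8, with NT as in the AS table, 1 library per bar and 95% Poisson counting intervals. Snhg1 and Snhg3 are highest in AS, and Neat1 is lowest in AS at 89.6 RPM and highest in RC4 at 628 RPM.

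Gas5, a growth-arrest gene whose RNA hosts box C/D snoRNAs, was under 2-fold from NT in all libraries. It had 1268 RPM in NT, 1454 in AS, then 1540 in RC4 and 1211 in RC8. The level was thus highest in RC4 and closest to the control in RC8. The log2 change was 0.20 in AS (95% interval 0.17 to 0.22), then 0.28 in RC4 (0.25 to 0.30) and −0.07 in RC8 (−0.09 to −0.04). All 3 intervals leave out 0, and all 3 changes are under 2-fold. In RC4 the value was 0.57 by TMM and 0.58 by median-of-ratios scaling, against a median gene at −0.30 by RPM.

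Most of the Gas5 reads were assigned to PASs at snoRNA ends, not to the last exon. In NT, the SNORD78 end took 33.6% of the reads, the SNORD79 end 19.2% and the SNORD77 end 6.67%. The sites inside SNORD74 and SNORD24 took 10.7% and 6.67%, and the last exon 23.2%. The 3 snoRNA-end sites together went from 59.5% in NT to 65.0% in AS, then 62.2% in RC4 and 63.2% in RC8. The last exon fell to 17.1% in AS and stood at 21.9% in RC4 and 21% in RC8. In estimated level, the snoRNA-end sites of AS were 1.25-fold above NT (log2 change 0.33, 0.30 to 0.35), and the last exon was 1.18-fold below it (−0.24, −0.29 to −0.19). The 2 kinds of site thus moved in opposite directions in AS, whereas in RC4 both were higher, at 0.34 and 0.19. The files label 4 of these sites as lying in the 5′-most exon and the SNORD77 end as intronic.

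Another 8 listed genes, among them Snord78, Snord47, Snord80 and Mir5117, have PASs within Gas5, so its reads are counted under more than 1 name. Snord47 is listed with 6614 reads in NT, while the last exon of Gas5 had an estimated 6646, and neither entry is an independent measurement of the other.

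Snhg1, the host of a row of box C/D snoRNAs, had its highest level in AS. It stood at 541 RPM in NT, 986 in AS, then 479 in RC4 and 544 in RC8. The log2 change in AS was 0.86 (0.83 to 0.90), a 1.82-fold difference, and 99.1% of all genes had a value as low or lower. In RC4 it was −0.18 (−0.22 to −0.14), which turned to 0.11 after TMM scaling. In RC8 it was 0.01 (−0.03 to 0.04), so NT and RC8 were not distinguishable at this depth. Between AS and RC4 the level differed 2.06-fold by RPM, but by TMM, at 0.91 and 0.11 over NT, the difference is under 2-fold.

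The shares of the PASs of Snhg1 differed from NT by at most 1.30 percentage points. The last exon took 88.4% of the reads in NT, 88.2% in AS, then 88.7% in RC4 and 89.7% in RC8, of which the value in RC8 (89.2 to 90.2) lies outside the interval of NT (87.8 to 89.0). The remainder was placed at an intronic PAS whose position differs between tables. The RC4 and RC8 tables list the SNORD31 end, with 11.6% in NT, 11.3% in RC4 and 10.3% in RC8. The AS table lists a site 115 nt past the end of SNORD30 instead, with 11.6% in NT and 11.8% in AS. Another 4 listed genes have PASs within Snhg1, and the entry for Snord22 holds 10779 NT reads, close to the 10807 estimated for the last exon of Snhg1.

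Snhg3, the host of Snora73a and Snora73b, had a lower level in both recovery libraries than in NT and a higher one in AS. It had 66.9 RPM in NT, 118 in AS, then 32.1 in RC4 and 36.3 in RC8. AS stood highest, NT between, and the recovery libraries lowest. The log2 change was 0.82 in AS (0.73 to 0.91), then −1.06 in RC4 (−1.19 to −0.93) and −0.88 in RC8 (−1.01 to −0.76). In RC4, Snhg3 was just past the 2-fold threshold. By TMM it was −0.77, and by the first of its 2 read columns −0.99, and both values miss the threshold. Between AS and RC4 the level differed 3.67-fold by RPM, and by TMM the values over NT were 0.86 and −0.77.

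The share of Snhg3 reads at the Snora73b end differed most between NT and AS of any member's PAS at a snoRNA end. Of the 6 genes, 2 had a PAS whose share changed by 10 percentage points or more in AS, Snhg3 and Snhg12, and 15.2% of the 5287 genes with 2 or more listed PASs did so. The Snora73b end held 50.8% of the reads in NT (48.3 to 53.3, Wilson interval) and 82.4% in AS (80.9 to 83.8). The last exon held 45.7% in NT and 10.9% in AS. As levels, the Snora73b end went from 34.0 to 97.1 RPM, 2.86-fold higher, and the last exon from 30.6 to 12.8 RPM, 2.38-fold lower. The higher level of Snhg3 in AS was therefore at the Snora73b end, while its last exon had fewer reads than in NT.

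In recovery the 2 sites of Snhg3 were lower together. The Snora73b end held 52.5% in RC4 and 45.1% in RC8, against 50.8% in NT. Its level was 16.9 RPM in RC4 and 16.4 in RC8, and that of the last exon was 15.3 and 19.9, against 32.9 in NT when 2 PASs are listed. The third PAS of Snhg3, listed in the AS table alone, went from 3.58% in NT to 6.73% in AS. A site this low in NT can be listed through its share in AS, so its rise is not read as a result.

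Snhg12, the host of Snora16a, Snora44, Snora61 and a box C/D snoRNA, varied less in level than Snhg3. It stood at 82.5 RPM in NT, 99.4 in AS, then 57.2 in RC4 and 64.5 in RC8. The log2 change was 0.27 in AS (0.18 to 0.36), then −0.53 in RC4 (−0.63 to −0.43) and −0.35 in RC8 (−0.45 to −0.26). The order of the libraries by RPM was that of Snhg3, with AS highest and RC4 lowest. By TMM that order turned, with Snhg12 at −0.24 in RC4 and −0.36 in RC8, and Snhg3 at −0.77 and −0.89.

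The sites of Snhg12 also differed between NT and AS. The Snora61 end went from 12.3% to 26.8%, the Snora44 end from 12.5% to 17.4% and the Snora16a end from 2.96% to 6.46%. Together the 3 ends held 27.8% in NT and 50.7% in AS, and the last exon 65.9% and 45.7%. The Snora16a end, low in NT, is listed beside AS alone and can be listed through its share there. The Snora61 and Snora44 ends are listed in every comparison. In level, the 3 ends went from 22.9 to 50.3 RPM, 2.198-fold higher (log2 change 1.14, 0.99 to 1.29), and the last exon from 54.4 to 45.4 (−0.26, −0.38 to −0.14). In recovery 2 of the ends are listed, with 25.6% in NT, 34.6% in RC4 and 30.6% in RC8. Their level, 21.2 RPM in NT and 19.8 in RC4, had a log2 change whose interval includes 0 (−0.10, −0.29 to 0.09) and whose sign turns by TMM, while the last exon was lower (−0.65). A remaining intronic PAS, at the 3′ end of a run of 12 A, fell from 6.33% to 3.59% in AS and from 6.53% to 2.71% in RC4. The listed genes Snora61 and Snord99 have their PASs within Snhg12, and Snora61, with 272 reads in NT and 670 in AS, is not independent of the Snora61 end of Snhg12.

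**Figure D3:**
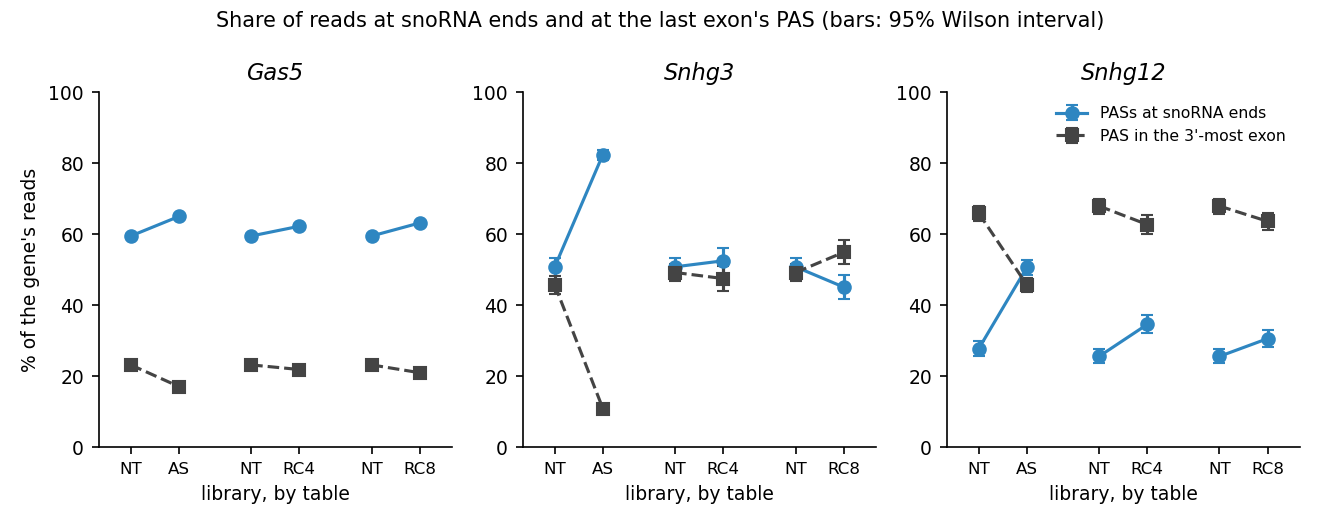
Share of the gene's reads, in %, at PASs within 10 nt of a snoRNA end (blue circles) and at the PAS of the 3′-most exon (dark squares), for Gas5, Snhg3 and Snhg12, as NT and treated library of each table with 95% Wilson intervals. In AS the 2 kinds cross over in Snhg12 and part widely in Snhg3, and in RC4 and RC8 no share moves by more than 10 percentage points.

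In RC4, 0 of the 6 members had a PAS share changed by 10 percentage points or more, while 29% of 5343 genes did. In RC8 it was again 0 of the 6, against 26.9% of 5357 genes. At 5 percentage points, Snhg12 and Neat1 passed in RC4, where 58.8% of genes did, and Snhg3 and Snhg12 in RC8, where 57.7% did.

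Intronic PASs at snoRNA ends were also listed in other genes. With the members left out, 20 such PASs were listed in the AS table, 16 of them had a higher share in AS, and the median change was 3.45 percentage points (1.30 to 6.84). Of the other 1466 intronic PASs 54.1% were higher in AS, with a median change of 0.50. In RC4, 3 of 12 were higher with a median of −2.73 (−3.84 to 0.51), beside 60.1% and 1.63 for other intronic PASs. In RC8, 5 of 12 were higher with a median of −1.33 (−3.81 to 5.40), beside 46.8% and −0.50. The intervals of the medians in RC4 and in RC8 include 0. The 5 such PASs of the members in RC4 had changes of 6.8, 2.2, 1.7, 0.05 and −0.3 percentage points. MAAPER listed a PAS only above a minimum share of the reads, so a site low in NT can be listed through AS alone. Among the 20, Gtf2a1 went from 0.689% to 7.87%, Snhg4 from 2.41% to 8.74% and Champ1 from 2.38% to 5.78%. The 4 that were lower include Odc1, from 5.89% to 2.19%. A rise at sites listed through AS follows from their listing, so the 16 of 20 and the median of 3.45 do not measure a rise at snoRNA ends. Since PASs of 1 library share their depth and the position class was defined after seeing the sites, no test was made.

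Malat1 had fewer reads in every treated library than in NT by RPM. It stood at 819 RPM in NT, 551 in AS, then 680 in RC4 and 497 in RC8. The log2 change was −0.57 in AS (−0.60 to −0.54), then −0.27 in RC4 (−0.30 to −0.24) and −0.72 in RC8 (−0.75 to −0.69). The value in RC4 was close to the median of all genes and turned to 0.02 by TMM, whereas the value in RC8, matched or undercut by 8.07% of all genes, remained negative under both other scalings.

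The reads of Malat1 were mostly assigned to a PAS close to its start. This site, 0.878 kb from the start and shown above, took 88.7% of the reads in NT, 88.4% in AS, then 90.2% in RC4 and 86.5% in RC8. The site at the annotated end of the gene, which has AATAAA, held 5.52%, 6.22%, 4.42% and 5.24%. A site 4.25 kb from the start, with ATTAAA, held 5.79% in NT, 5.41% in AS, then 5.34% in RC4 and 8.24% in RC8. All 3 sites were lower than NT in level in each comparison by RPM, though in RC4 the site near the start, at −0.25, lies above NT once 0.29 is added by TMM. In RC8 the middle site was lower by less than the others, at −0.21 (−0.34 to −0.08), beside −0.76 and −0.79.

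Neat1 differed from NT more than any other member in AS and in RC4, in opposite directions. It had 276 RPM in NT, 89.6 in AS, then 628 in RC4 and 475 in RC8. In AS it was 3.08-fold lower than NT (log2 change −1.62, −1.70 to −1.55), and 0.306% of all genes had a value as low or lower. In RC4 it was 2.27-fold higher than NT (1.18, 1.14 to 1.23), or 1.47 by TMM, and in RC8 1.72-fold higher (0.78, 0.74 to 0.83). The level in RC4 was 7.01-fold that in AS by RPM, and by TMM the values over NT were −1.58 in AS and 1.47 in RC4.

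Of 9875 genes in all tables, 10 were 2-fold or more below NT in AS and 2-fold or more above it in RC4, Neat1 among them. Alone, 309 of these genes were 2-fold lower in AS and 343 were 2-fold higher in RC4. Both comparisons share the NT library, so the values are given side by side only.

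**Figure D4:**
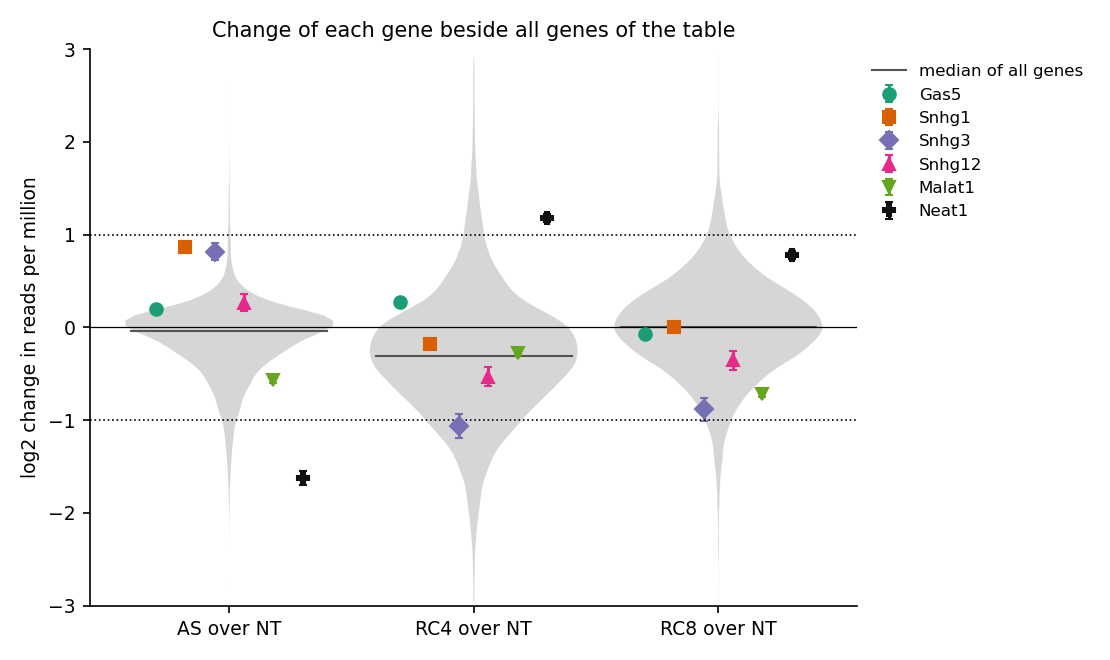
Log2 change in RPM of the 6 genes with 95% counting intervals, beside the distribution of all genes of each table (gray, drawn between −3 and 3, which leaves out 0 genes in AS, then 20 in RC4 and 3 in RC8). Neat1 lies at −1.62 in AS and 1.18 in RC4, and dotted lines mark 2-fold.

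Most Neat1 reads came from the end of the short transcript. The PAS with AATAAA shown above, 3.17 kb from the start, held 89.8% in NT, 89.6% in AS and 95% in RC4. The RC8 table lists a position a little further along in its place, 3.20 kb from the start, with 89.8% in NT and 92.3% in RC8. A site 12.6 kb from the start, reached only by the long transcript, held 6.08% in NT and 4.84% in AS in the table that lists 3 sites. In the other tables it held 10.2% in NT, 4.98% in RC4 and 7.72% in RC8.

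In estimated level, all 3 Neat1 sites of the AS table were lower in AS, with a log2 change of −1.63 at the short end (−1.70 to −1.55) and −1.95 at the distant site (−2.29 to −1.63). The site between them, 6.50 kb from the start and listed in the AS table alone, held 4.09% in NT and 5.60% in AS and had a log2 change of −1.17 (−1.50 to −0.84). Its higher share in AS can be the reason for its listing. In RC4 the short end was 2.40-fold higher, whereas the distant site was at 28.2 RPM in NT and 31.3 in RC4 (0.15, −0.01 to 0.30). In RC8 the values were 0.82 and 0.38, and both intervals leave out 0. The higher level of Neat1 in RC4 was thus assigned to the short end, with an interval that includes 0 at the distant site by RPM. In the same NT library the distant site held 6.08% (5.51 to 6.70) with 3 sites listed and 10.2% (9.47 to 10.98) with 2. Its share thus depends on the sites listed by more than the interval covers. The site lies within the long transcript, whose annotated end has no listed PAS, so the short and long transcripts were not measured apart. By TMM, which adds 0.29, the distant site would lie above NT as well.

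**Figure D5:**
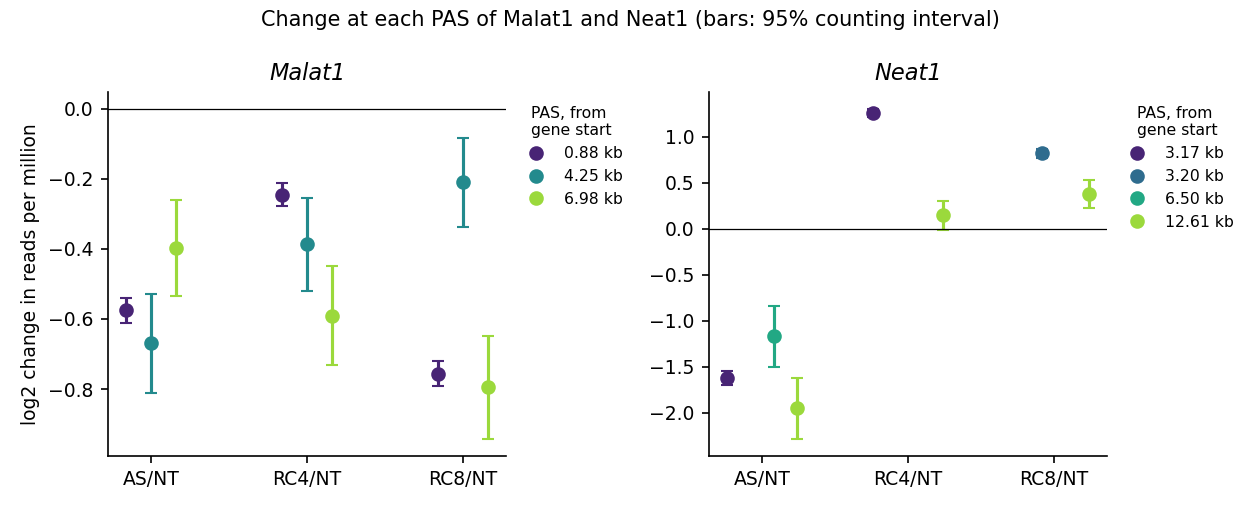
Log2 change in estimated RPM at each listed PAS of Malat1 and Neat1, colored by distance from the gene start in kb, with 95% counting intervals. In RC4 the short end of Neat1 (3.17 kb) lies at 1.26 and the distant site (12.61 kb) at 0.15.

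Among 7808 genes with 200 or more reads in every library, the genes nearest to each member in the 3 log2 changes were found by Euclidean distance. For Gas5 they were Gm8566, Mcl1 and Gm10237 (distance 0.05 to 0.07). For Snhg1 the nearest was Snord22 (0.03), which shares its reads, then Clk1 (0.22) and Gm22680 (0.23), which lies within Snhg1. Snhg12 had Ptpa, Rnf215 and Tubgcp4 (0.07 to 0.11), and Malat1 had Snora33, Thbs2 and Lpar1 (0.08 to 0.10). Snhg3 and Neat1 had no gene that close. The nearest to Snhg3 were Insig1, Fdft1 and Nfkbia (0.44 to 0.52), and the nearest to Neat1 were Myo10, Washc2 and Osbpl8 (0.59 to 0.69).

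Other noncoding snoRNA hosts lay on both sides of NT in AS, 4 higher and 4 lower. Of 16 listed, 8 were in the tables, with a median log2 change of −0.03 in AS, then −0.60 in RC4 and −0.26 in RC8. In AS 1 of the 8 was 2-fold higher, beside 0.622% of all genes, namely 1810032O08Rik, at 10.6 RPM in NT and 23.2 in AS, and Snhg15 was at 0.60. In RC4 and in RC8 1 of the 8 was 2-fold lower, Snhg4, beside 13.4% and 3.53% of all genes. Snhg4 had 199 RPM in NT, 173 in AS, then 89.4 in RC4 and 83.0 in RC8. By TMM its value in RC4 stood 0.29 higher, at a loss of the 2-fold call. Snhg5 was at −0.72 in RC4, and Snhg7 at −0.97 in RC8.

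Other long noncoding RNAs were mostly below NT in AS, with 7 of 8 below 0 and a median of −0.46. The median was −0.46 over 10 genes in RC4 and −0.14 over 9 in RC8. Meg3, an imprinted RNA, went from 36.8 RPM in NT to 13.9 in AS, 2.66-fold lower. Dnm3os was at −1.93 in AS with 144 reads. Pvt1, which neighbors Myc, went from 20.2 to 40.7 RPM in AS, 2.01-fold higher. In AS 1 of the 8 was thus 2-fold higher and 2 were 2-fold lower, beside 0.622% and 3.22% of all genes. Dancr, the host of a snoRNA, was at −1.06 in RC4 and −0.86 in RC8. It was the 1 gene of the 10 called in RC4, where 13.4% of all genes were 2-fold lower.

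Protein-coding snoRNA hosts, mainly ribosomal protein genes, had medians near 0. All 31 listed were in the tables. In AS 0 of them were 2-fold or more from NT, beside 3.85% of all genes. In RC4 1 was (higher, beside 3.69% of all genes) and in RC8 2 were (lower, beside 3.53%). Their medians were 0.06 in AS, then 0.03 in RC4 and −0.10 in RC8. The single values ran from −0.88 to 1.79 in RC4 and from −1.13 to 0.39 in RC8. In RC4, where the median gene stood at −0.30, the median of the list became 0.32 by TMM. Hspa8, a heat shock cognate chaperone whose introns carry box C/D snoRNAs, was 3.46-fold higher in RC4, at 1082 RPM in NT and 3747 in RC4. Dkc1, which encodes the pseudouridine synthase of H/ACA particles and hosts snoRNAs itself, was at −0.25 in AS, then −0.88 in RC4 and −1.13 in RC8. Rpl17 stood at −1.004 in RC8, just past 2-fold, and Eif4a2 at −0.84 in RC4.

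For the proteins of snoRNA particles and their assembly, 0 of 17 were called in AS and RC4 and 1 in RC8, Dkc1. Their medians were 0.06, −0.39 and −0.02, and in RC4 Nop56, a core protein of box C/D particles, stood at −0.84. For factors of nonsense-mediated decay, the pathway that degrades several host RNAs, 16 of 17 were listed and the medians were 0.02, −0.39 and −0.01. In AS 1 of the 16 was 2-fold lower, beside 3.22% of all genes. It was Smg1, with few reads (330 in NT and 86 in AS, −1.93), and Smg6 stood at −0.78. In RC4 1 of the 16 was 2-fold lower, beside 13.4% of all genes, namely Upf3b, which was 2.55-fold lower. Upf1, the central helicase of the pathway, was at −0.19 in AS and −0.86 in RC4. For paraspeckle proteins, all 16 were listed and the medians were −0.02, −0.20 and −0.19, of which that in RC4 turns to 0.09 by TMM. Nono, a core paraspeckle protein, was at 0.18 in AS. Hnrnpr, at −0.67 in AS, was 2.83-fold lower in RC4. It was the 1 of the 16 called there, where 13.4% of all genes were 2-fold lower. In RC8, Pspc1 stood at −0.92 and Tardbp at 0.52. Each list is a description, read beside the medians of all genes of −0.04, −0.30 and 0.01.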

How the data were processed

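QuantSeq FWD libraries of NT, AS, RC4 and RC8 NIH3T3 cells were used, 1 per condition. The 4 QuantSeq REV libraries have no column in the tables used here and were not analysed. Read trimming by the authors used bbmap, alignment to mm9 used STAR 2.5.2a, and MAAPER assigned reads to PASs of PolyA_DB. They deposited read counts per gene, unscaled and in 2 columns per condition, and the fraction of a gene's reads at each PAS. The 2 columns differed by no more than counting (chi-square per degree of freedom 0.974 to 1.03) and were summed as 1 library. MAAPER kept genes with at least 50 reads, so weaker genes are missing. It also listed only PASs above a minimum share of the gene's reads, so a PAS can be listed through 1 of the libraries compared. The tables name the libraries as conditions 1 and 2, which were taken as NT and the treated library from the methods. The authors' P values and RED and RLD scores, which compare conditions, were not used.

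Counts were divided by the total on listed genes. Levels have exact Poisson intervals, ratios exact conditional binomial intervals, PAS shares Wilson intervals on the gene's reads, and medians order-statistic intervals, all 95%. The level at a PAS is the fraction times the gene's RPM. Calls needed a 2-fold change or 10 percentage points. TMM factors came from edgeR 4.0.16 and median-of-ratios factors by the method of DESeq2 1.42.0, in R 4.3.3, and no count model was fitted. The ratio and its interval were tested on simulated data. SnoRNAs and exons came from GENCODE vM1 and sequence from NCBIM37, which is mm9. The members, the gene lists and the rules were chosen with earlier results of these data known. Named genes were the 6 members, the 2 highest and 2 lowest of each other list per comparison with 200 or more reads in each library, of which a part is printed, and the 3 genes nearest in pattern to each member. The genes named for their PASs were chosen after their values were seen. Python 3.11.15, pandas 2.3.3 and scipy 1.17.1 were used.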

Additional observations from a re-analysis of the deposited data

Results flagged for a closer look

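Gas5, Snhg1, Snhg3, Snhg12 and Neat1 were flagged because, by RPM, their counting intervals lay on opposite sides of NT in 2 conditions. The share of all genes that do so was not computed. At high read counts small changes pass, as for Gas5 at −0.07 in RC8, so the flag is not a trait of the members. Each condition had 1 library, NT was shared between the comparisons, and the difference was not tested in any of these genes. For Neat1, the log2 change over NT was 2.80 higher in RC4 than in AS and 2.41 higher in RC8 than in AS. For Snhg3, the difference of the log2 changes was −1.88 (RC4 minus AS) and −1.70 (RC8 minus AS). For Snhg12 it was −0.80 (RC4 minus AS) and −0.62 (RC8 minus AS). For Snhg1 it was −1.05 (RC4 minus AS), where the value in RC4 turns to 0.11 by TMM and both then lie above NT. For Gas5 it was −0.26 (RC8 minus AS) and −0.34 (RC8 minus RC4).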

How the results depend on the processing

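With 1 library per condition the spread between cultures is unknown, and depth limits only counting error, which was largest for Snhg3 (736 reads in RC4). No paired analysis was possible because each condition had 1 library. At 1.5-fold, 3 members were called in AS and 3 in RC8, with 13.3% and 23.2% of all genes. In RC4, 1 member was called by TMM, by median-of-ratios scaling and by the first read column alone, since Snhg3 lost its call. At 5 percentage points, 2 members had a changed PAS in RC4 and 2 in RC8. Among medians of lists, 4 in RC4 moved with the scaling, to 0.32 by TMM and 0.33 by median-of-ratios for coding snoRNA hosts, −0.10 and −0.084 for snoRNA particle proteins, −0.10 and −0.087 for decay factors, and 0.088 and 0.10 for paraspeckle proteins. The other 87 recomputed counts and medians stayed within 1.5 times the count or within the interval of the median. Among these alternatives the pooling of PASs at snoRNA ends and totals without genes inside a member were chosen after seeing the data. In RC4, TMM and median-of-ratios scaling turned the sign of Snhg1 and Malat1, and in RC8 the first read column put Snhg1 at −0.01.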

Other observations

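Outside the list, 4 genes had an intronic PAS at a snoRNA end whose share was 10 percentage points or more higher in AS, of 20 such PASs. Of the intronic PASs not at a snoRNA end, 108 of 1466 had a share that much higher. The 4 genes were singled out after their values were seen. Snhg20, a noncoding host, went from 32.3% in NT to 60.7% in AS at the SCARNA16 end, and was at 32.1% in RC4 and, from 29.5% in the NT of that table, at 40.6% in RC8. Ppp1r8, which encodes a nuclear inhibitor of protein phosphatase, went from 12.3% to 33.2% at the SCARNA1 end. Prrc2a went from 4.94% to 17.8% at the SNORA38 end, and Snhg7 from 4.44% to 16.5% at the Snora17 end. Sites this low in NT can be listed beside AS through their share in AS. Cep295, a centriole gene, was at 56.5% in NT and 63.3% in AS at the Scarna9 end, and at 32.2% in RC4 and 31.8% in RC8. SCARNA names denote small RNAs of Cajal bodies, which resemble snoRNAs. No further value was at hand to compare these sites between cultures.

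The 10 genes that were 2-fold below NT in AS and 2-fold above it in RC4 included, besides Neat1, Washc2, a gene of the endosomal WASH complex, at −1.01 in AS and 1.204 in RC4. Of the 10, 8 had 200 or more reads in each library.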
